A study of Mus musculus with 12 samples.

Results

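The 6 CLIP libraries of mouse striatum fell into a pair of sets of 3 that crossed the treatment, and the peaks, genes and transcript regions that differed between these sets are described here. Set A held saline replicates 1 and 3 and methamphetamine replicate 2, and set B held saline replicate 2 and methamphetamine replicates 1 and 3 (written below as saline 1, methamphetamine 2 and so on). The sets were chosen from the measured peak counts, as the opposite sides of the first principal component. Every comparison of A with B is therefore a description, without a test, and nothing is supported by it. Of 147438 distinct peak positions, 11107 (7.53%) had 10 or more reads in at least 3 libraries and were used. The series has 12 samples here, 6 of CLIP and 6 of RNA-seq from the same pools. All mice were wild-type C57BL/6J, from matings of males heterozygous for an Hnrnph1 mutation with C57BL/6J females, and were 50 to 100 days old. Saline was injected into the peritoneum on the first days of the protocol, and on day 3 the mice received saline again or methamphetamine at 2 mg/kg. Whole striata were taken 30 min later. Each replicate pooled the striata of 4 mice, 2 females and 2 males, from several litters, so that a library describes a pool and not an animal. Mutant mice were not analysed here.

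HnRNP H is a nuclear RNA-binding protein that recognises runs of guanines and is known for regulating alternative splicing, mostly from introns and exon edges, and polyadenylation. In CLIP, ultraviolet light links a protein to the RNA it touches, the protein is precipitated with an antibody, and the short RNA fragments it carries are sequenced. Methamphetamine raises synaptic dopamine in the striatum, whose main neurons are GABAergic medium spiny neurons. Here the antibody was against hnRNP H and the membrane was cut from 50 to 75 kDa. A peak is a window of 100 nt on 1 strand, and reads per peak are given as CPM, counts scaled to library size by the trimmed mean of M-values (TMM).

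The first principal component of log2 CPM held 45.4% of the variance of the 11107 peaks and the second 23.2%. Saline 1 scored 67.8 on the first, methamphetamine 2 scored 60.2 and saline 3 scored 59.9. Saline 2 scored -111.1, methamphetamine 1 scored -60.0 and methamphetamine 3 scored -16.7. The A libraries lay close together on both components, while on the second component saline 2 lay at -72.0 and methamphetamine 1 and 3 at 56.8 and 68.8, so that set B did not form a cluster. Correlations across peaks were 0.870 to 0.909 within A, 0.679 to 0.713 within B and 0.557 to 0.713 between the sets. Peaks are not independent replicates, and these values share the depth of the libraries. Depth moved with the sets: the A libraries held 979878 to 1635338 reads in peaks and the B libraries 423057 to 909091, with no overlap. The counts were therefore also taken after thinning each library to 423057 reads, which changes the peaks that pass the filter as well. The labels name no batch that follows the sets.

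**Figure D1:**
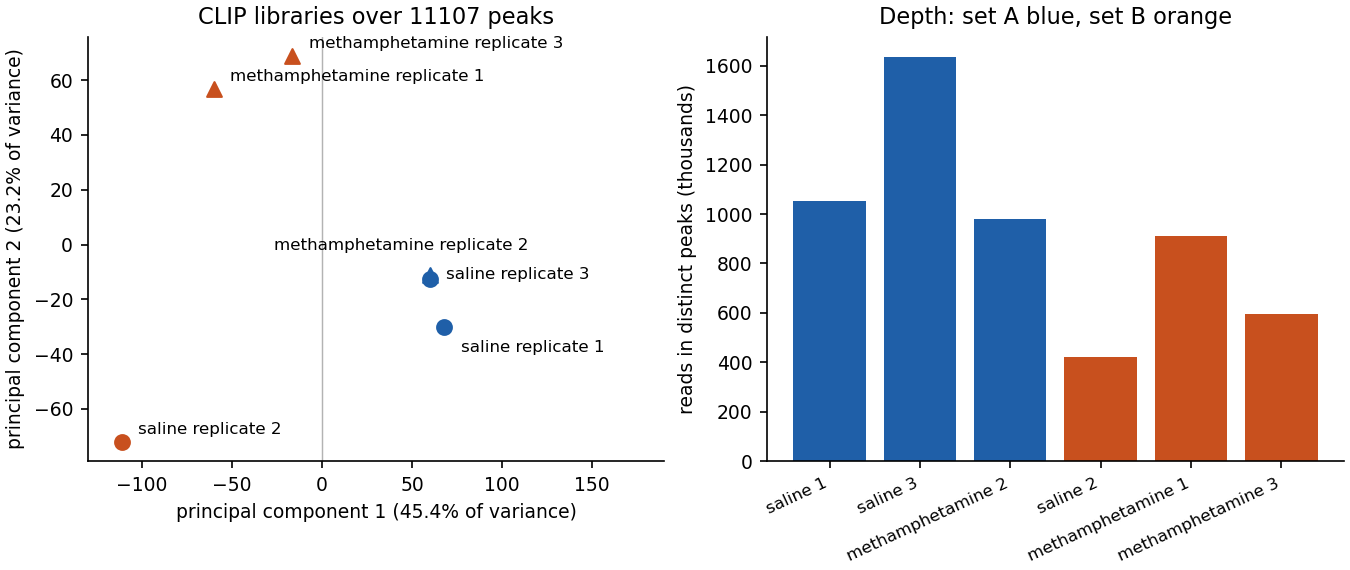
Scores of the 6 CLIP libraries on principal components 1 and 2 of log2(TMM-scaled CPM + 1) over 11107 peaks (left; circles saline, triangles methamphetamine) and reads in distinct peaks per library (right, axis from 0). The 3 A libraries (blue) sit together at 59.9 to 67.8 on component 1, the 3 B libraries (orange) are spread from -111.1 to -16.7, and every A bar is higher than every B bar.

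A peak was counted as higher in A where each A library was above each B library and the set means differed by at least 2-fold, a difference of 1 on the log2 scale with 1 CPM added. This held for 1108 peaks in 821 genes, 9.98% of those examined. The reverse held for 764 peaks in 589 genes, 6.88%. Peaks of both kinds occurred in 60 genes, peaks higher in A only in 761 and peaks higher in B only in 529. Of 260 genes with 2 or more such peaks, 127 had them all on the A side, 73 all on the B side and 60 on both sides. Neighbouring windows often differed together, and joined across gaps of up to 500 nt the peaks formed 946 stretches on the A side and 638 on the B side. At the edge of the rule, an intron peak of D130009I18Rik lay just inside on the A side (log2 difference 1.0027) and one of Gm48607 just outside (0.9985).

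Much of the A count went through the filter on low values. Of the peaks that passed, 2170 had 10 reads in all 3 A libraries and in no B library, and these make up 876 of the 1108. The filter selected these peaks for reads in set A, and 0 of the 2170 were higher in B, so this count supports nothing. The opposite case, 10 reads in all 3 B libraries and in no A library, occurred in 34 peaks, all of them among the 764. In the 3511 peaks with 10 reads in all 6 libraries, 57 were higher in A and 345 higher in B. With the scaling fitted anew on those peaks, the counts were 98 and 272. After thinning, 5282 peaks passed, with 388 higher in A and 425 higher in B, of which 325 and 347 were among those of the full counts. When scaled by library totals instead of TMM, 1612 were higher in A and 517 in B, so that A made up 75.7% of the differing peaks instead of 59.2%. The median difference of all peaks was 0.25 under that scaling and -0.03 under TMM, and the differences below are on the TMM scale.

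Sequences of exon peaks are shown here for both sides, because guanine runs are what hnRNP H is known to bind. They are examples, 2 for A and 4 for B, from genes with wide gaps among peaks lying wholly within 1 coding or noncoding exon, and other such peaks are not shown. They come from GENCODE M21 transcripts of GRCm38 (mm10), read 5′ to 3′ on the transcript strand, and capitals mark every run of 3 or more G. Intron sequence was not used here.
Necap1 (higher in A, chr6:122882875-122882974, plus strand): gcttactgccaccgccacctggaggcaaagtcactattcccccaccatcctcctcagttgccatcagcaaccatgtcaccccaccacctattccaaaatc
Pkdrej (higher in A, chr15:85820371-85820470, minus strand): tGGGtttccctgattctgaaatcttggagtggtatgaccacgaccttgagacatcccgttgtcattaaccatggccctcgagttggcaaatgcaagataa
Eif3f (higher in B, chr7:108934618-108934717, plus strand): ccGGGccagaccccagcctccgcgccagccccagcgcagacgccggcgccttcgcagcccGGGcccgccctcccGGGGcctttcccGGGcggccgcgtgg
Gm42418 (higher in B, chr17:39848259-39848358, plus strand): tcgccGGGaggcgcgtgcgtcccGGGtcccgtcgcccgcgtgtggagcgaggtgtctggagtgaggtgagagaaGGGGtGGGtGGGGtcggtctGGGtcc
mt-Atp6 (higher in B, chrM:7928-8027, plus strand): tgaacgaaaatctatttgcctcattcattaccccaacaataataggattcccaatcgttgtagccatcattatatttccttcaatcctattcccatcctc
mt-Co2 (higher in B, chrM:7314-7413, plus strand): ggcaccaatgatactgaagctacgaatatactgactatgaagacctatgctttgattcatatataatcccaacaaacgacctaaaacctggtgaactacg
The Eif3f window, in the first exon of a translation initiation factor subunit, held 4 runs and the Gm42418 window, in a noncoding RNA, held 6. The Gm42418 window was uneven over set B, at 2826 CPM in methamphetamine 1, 742 in saline 2 and 882 in methamphetamine 3. Pkdrej had 1 run, and the windows of Necap1, mt-Atp6 and mt-Co2 had 0. Over all exon peaks with a sequence, the motif GGG on the transcript strand occurred in 58 of 73 higher in A (79.5%) and in 192 of 296 higher in B (64.9%). It occurred in 1829 of all 2236 such peaks (81.8%). Mitochondrial peaks were the poorest in it, with 4 of 33 (12.1%), and without them the B side stood at 188 of 263 (71.5%). The motif GGGG, which contains GGG, was in 46.6% of the A side, 35.8% of the B side and 50.1% of all. A match is a description of the letters and not a binding site.

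The peaks with the widest gap on the A side lay in introns and were at or near 0 reads in set B. The gap is the log2 ratio of the lowest library of the higher set to the highest library of the other, with 1 CPM added. An intron peak of Phactr2 (ENSMUSG00000062866), which encodes an actin- and phosphatase-binding protein, lay at chr10:13388318-13388417 on the minus strand, 328 nt from the nearest exon. It had 112 reads in saline 1, 325 in saline 3 and 242 in methamphetamine 2, and 0 in each B library. Its mean of 215.6 ± 83.2 CPM in A (SD, n = 3) was at least 26.3-fold higher than 3 reads in each B library would give. The kinase gene Tnni3k held a similar intron peak (ENSMUSG00000040086, chr3:154801892-154801991, minus strand), with 304 reads in saline 1, 484 in saline 3 and 522 in methamphetamine 2. In set B it had 0, 0 and 1. Both treatments of set A therefore carried these peaks and both treatments of set B lacked them. In RNA-seq Tnni3k had at most 1 read in each pool.

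Other intron peaks with 0 reads in every B library were in Megf11, a transmembrane protein with EGF repeats, and in Synpr, a synaptic vesicle protein. Megf11 (chr9:64558427-64558526, plus strand) had 108 reads in saline 1, 143 in saline 3 and 49 in methamphetamine 2, at least 11.5-fold above the floor of 3 reads per library. Synpr (chr14:13613281-13613380, plus strand) had 74, 394 and 26 reads in the same order, at least 16.3-fold above it. The Synpr reads were mostly from saline 3, whereas those of Megf11 were more even. D630045J12Rik, Adamts7, Gm49135, Fhad1, Itga9 and the plasma membrane calcium pump gene Atp2b2 made up the rest of the 10, with bounds from 11.4-fold to 22.2-fold. In each of these 6, saline 3 held the most reads, for example 382 of Adamts7 against 59 in saline 1 and 39 in methamphetamine 2.

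Saline 3 led some of these peaks. Among 149 peaks with 10 or more reads in each A library and at most 1 in each B library, 39 had 61.6% to 78.6% of their summed A CPM in saline 3. That share chose the 39 peaks, and the other 110 had 52.1% or less. Tead4, a transcription factor of the Hippo pathway, was among them, with 176 reads in saline 1, 853 in saline 3 and 63 in methamphetamine 2. Of the 149 peaks, 135 lay in introns. No peak higher in B had so few reads in the A libraries, with 0 peaks at 1 read or fewer in each. This limit is in raw reads, and every B library was shallower than every A library. The filter also passed 2170 peaks through set A alone and 34 through set B alone. The contrast therefore cannot be told apart from depth.

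The most abundant peaks of the A side were present in all 6 libraries. An intron peak of Atp8b1, a phospholipid flippase, had 2945 ± 288 CPM in A and 1389 ± 302 in B (SD, n = 3 each). A peak in the 5′ UTR of Nr5a2, a nuclear receptor, had 1566 ± 341 CPM in A and 751 ± 94.8 in B. E2f8, a cell-cycle transcription factor, held an intron peak with 1638 ± 471 CPM in A and 561 ± 146 in B. In all 3 peaks each A library was above each B library, and no CLIP library was near 0. RNA-seq reads of these genes were few, at 10 to 25 per pool for Atp8b1, 0 to 8 for Nr5a2 and 3 to 10 for E2f8. The largest difference among the abundant peaks of the A side was at an intron peak of Gm11149. This peak had 776, 842 and 1385 CPM in saline 1, saline 3 and methamphetamine 2. It had 98.1, 136 and 73.3 CPM in saline 2, methamphetamine 1 and methamphetamine 3, 9.77-fold lower on average.

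**Figure D2:**
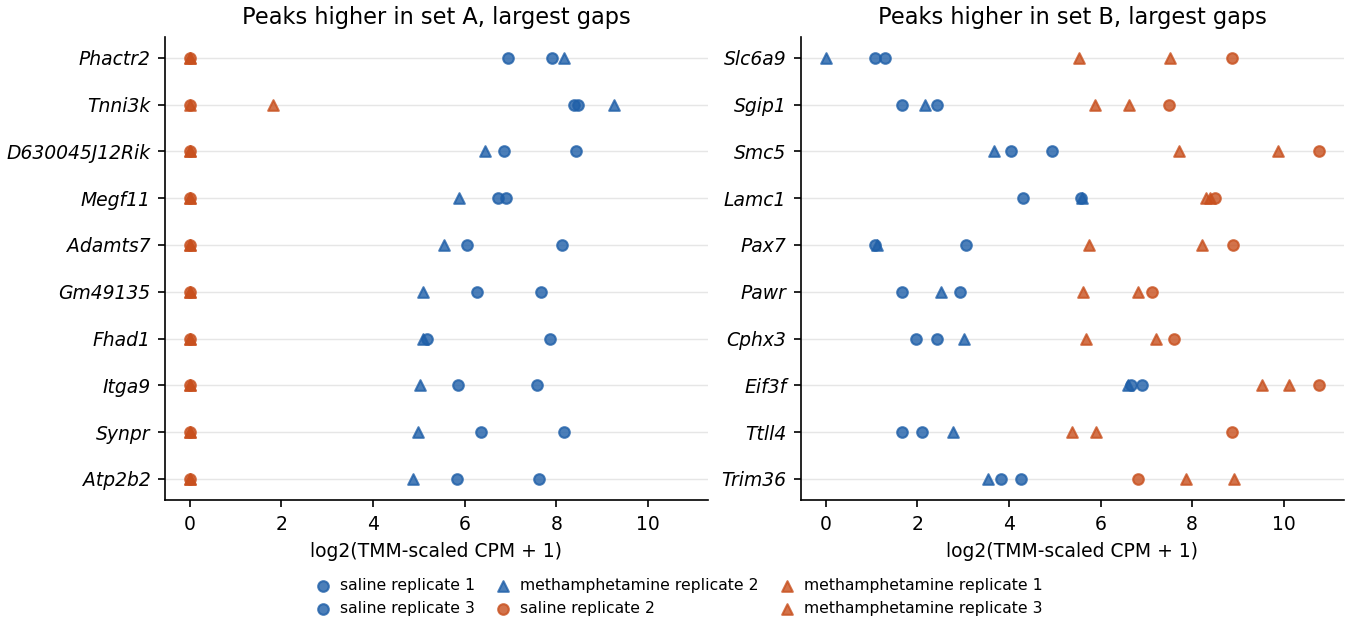
log2(TMM-scaled CPM + 1) in each of the 6 CLIP libraries for the 10 peaks with the widest gap on each side, 1 point per library. On the A side the B libraries lie at or near 0, and on the B side the A libraries lie low while the 3 B libraries are spread over a wider range.

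Some peaks with the widest gap on the B side were uneven among the B libraries. An intron peak of Slc6a9, the glycine transporter GlyT1 gene (chr4:117873907-117874006, plus strand), had 128 reads in saline 2, 90 in methamphetamine 1 and 18 in methamphetamine 3. It had 1, 2 and 0 reads in saline 1, saline 3 and methamphetamine 2. An intron peak of Smc5, a subunit of a chromosome maintenance complex, had 480, 464 and 82 reads in the B libraries and 27, 21 and 10 in A. That is 964 ± 769 CPM in B and 19.0 ± 9.49 in A, a ratio of 50.8. Saline 2 and methamphetamine 1, of opposite treatments, were high in both peaks and methamphetamine 3 was the lowest B library.

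The spread over set B varied among the other peaks, and Lamc1 was the most even of those given here. A peak in the 5′ UTR of Lamc1, a laminin chain of the basement membrane (chr1:153332723-153332822, minus strand), had 360 CPM in saline 2, 314 in methamphetamine 1 and 334 in methamphetamine 3. The A libraries had 18.7, 47.0 and 47.1 CPM, so that B was 8.94-fold higher. The coding-exon peak of Eif3f had 1741, 1108 and 733 CPM in the B libraries and 96.6 to 119 in A, an 11.3-fold difference. Among abundant peaks, an intron peak of Crtc3, a CREB coactivator, had 6867 CPM in saline 2, 7648 in methamphetamine 1 and 968 in methamphetamine 3. It had 105 to 215 CPM in A, and the ratio of the means was 33.8. Kpna1, a nuclear import receptor, held an intron peak with 5107 ± 1559 CPM in B and 1399 ± 327 in A, 3.65-fold lower. In RNA-seq Eif3f differed by 0.54 and Crtc3 by 0.21 on the log2 scale, with A higher in both.

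Of the 764 peaks higher in B, 73 had over 60% of their B CPM in saline 2, 48 in methamphetamine 1 and 48 in methamphetamine 3, and 595 in none. The kinds of peak differed by library. Of those led by saline 2, 58 lay in introns, and of those led by methamphetamine 3, 40 did. Of those led by methamphetamine 1, 20 lay in exons of noncoding transcripts and 15 in introns.

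Several genes held many peaks on the A side. Agap1, an Arf GTPase-activating protein of endosomal traffic, had 11 of its 15 peaks higher in A. All 11 lay in 1 intron within 1400 nt, chr1:89502107-89503506, with log2 differences from 1.40 to 3.10, and all 15 peaks were above 0. Summed over the gene, the difference was 0.67. Nrg1, which encodes a ligand of ErbB receptors, had 9 of 20 peaks higher in A, and Grin2a, an NMDA receptor subunit, had 6 of 8. Camsap2, a microtubule minus-end protein, had 7 of 15 within 2100 nt. Neighbouring windows of 1 stretch share fragments and are not separate observations.

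On the B side the genes with most peaks included long noncoding RNAs, mitochondrial genes and protein-coding genes of the nucleus. Malat1, a nuclear-retained RNA, had 25 of 55 peaks higher in B and none of the 55 above 0. Its summed level nevertheless overlapped between the sets, at 19727 to 32754 CPM in A and 27324 to 66483 in B. Meg3, an imprinted noncoding RNA, had 19 of 98 peaks higher in B. In Dpysl2, a collapsin response mediator of axon growth, 5 of 14 peaks were higher in B, all in the 3′ UTR within 1600 nt. Gabbr1, a GABA-B receptor subunit, had 4 of 10, in the 3′ UTR within 800 nt, and its RNA differed by 0.02. Genes could go both ways: Rbfox1, a splicing regulator, had 11 peaks higher in A and 1 higher in B of 56, and Dlg4, the PSD-95 scaffold gene, had 1 and 6 of 37.

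The regions of the transcript that held the differing peaks were unlike on the 2 sides. Introns held 999 of the 1108 peaks higher in A (90.2%) and 408 of the 764 higher in B (53.4%), beside 74.9% of all. The 3′ UTR held 37 on the A side (3.34%) and 132 on the B side (17.3%), beside 9.63% of all. Coding exons held 33 (2.98%) and 83 (10.9%), beside 6.42% of all, and exons of noncoding transcripts 11 (0.993%) and 87 (11.4%), beside 3.98% of all. Intron peaks on the A side lay deeper, with a median of 2819 nt to the nearest exon against 1002 nt on the B side and 1850 nt over all. Within 200 nt of an exon lay 10.1% and 23.8% of them, beside 16.6% of all. A-side genes were longer, with a median of 119 kb against 30.7 kb, beside 67.7 kb over all peaks.

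Intron share, 3′ UTR share and intron distance were recomputed under the alternatives, and the other regions were not. Over 15 settings, introns held 76.6% to 90.2% of the A side and 51.5% to 64.1% of the B side. In the peaks with 10 reads in all 6 libraries, they held 47 of 57 on the A side (82.5%) and 175 of 345 on the B side (50.7%), beside 71.2% of all. Coding exons there held 8.77% of the A side and 9.28% of the B side, beside 7.66% of all. These alternatives were added after the data were seen.

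**Figure D3:**
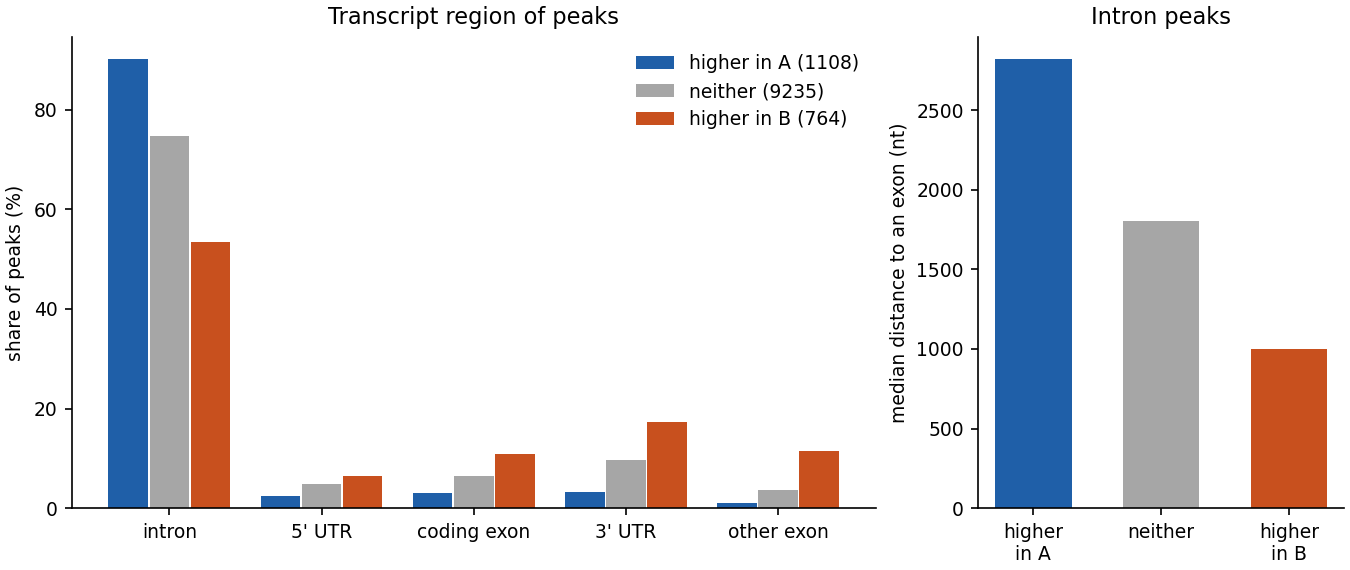
Percentage of peaks in each transcript region (left, axis from 0) and median distance of intron peaks to the nearest exon in nt (right) for the 1108 peaks higher in A, the 9235 in neither group and the 764 higher in B. Introns hold 90.2%, 74.8% and 53.4%, and the median distances are 2819, 1804 and 1002 nt.

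Counted over all reads, not only differing peaks, contrasts were smaller for introns and the 3′ UTR, and the 5′ UTR went the other way. The 5′ UTR took 3.64% to 4.23% of reads in A and 2.58% to 3.48% in B, without overlap. Yet it held 2.44% of the peaks higher in A and 6.41% of those higher in B, beside 4.74% of all. Coding exons overlapped, with 5.99% to 6.65% of reads in A and 5.22% to 6.64% in B. Introns as a whole held 74.1% to 77.4% of reads in A and 68.9% to 75.3% in B, which overlap. Intron positions over 500 nt from an exon held 55.0% to 58.7% in A and 50.4% to 54.0% in B, without overlap. The 3′ UTR overlapped, with 6.02% to 7.96% in A and 6.57% to 11.0% in B. Small nucleolar, spliceosomal and Cajal body RNAs, which guide RNA modification and splicing, took 0.255% to 0.345% in A and 0.386% to 0.857% in B.

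**Figure D4:**
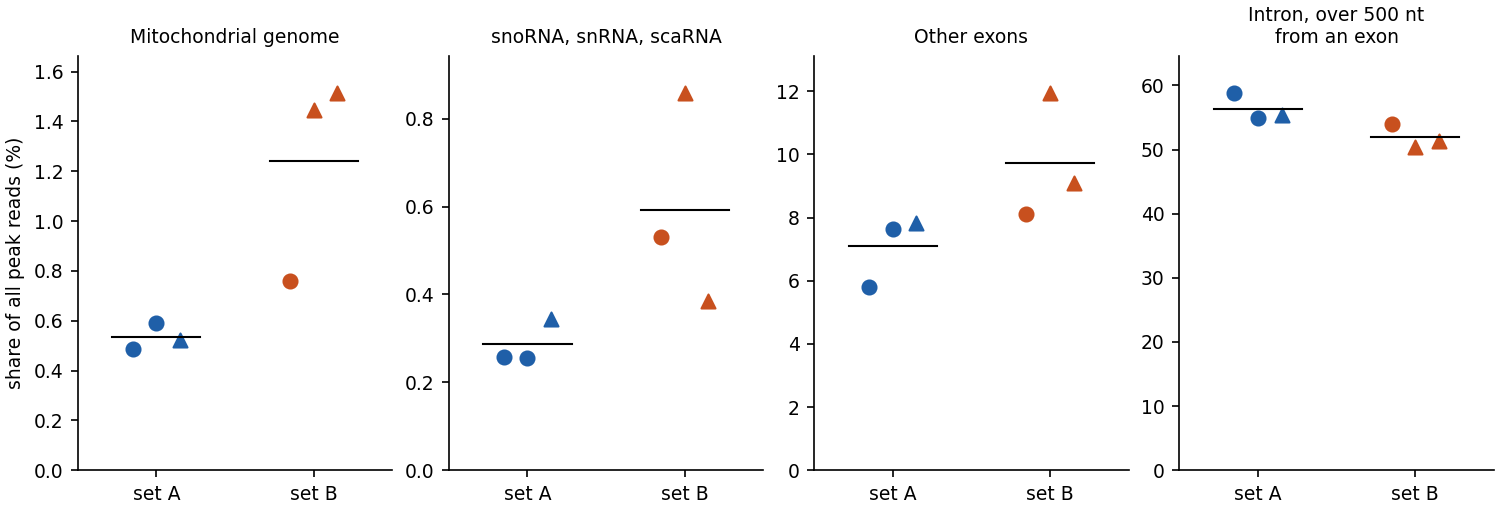
Percentage of peak reads per library in mitochondrial genes, small nuclear and nucleolar RNAs, exons of noncoding transcripts, and introns over 500 nt from an exon (points are libraries, bars are set means). In each panel the 3 A libraries and the 3 B libraries do not overlap.

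Mitochondrial transcripts, which encode respiratory chain subunits and are made outside the nucleus, lay on the B side. Of 40 mitochondrial peaks, 36 were higher in B and 0 in A. The mitochondrial genome took 0.488%, 0.592% and 0.524% of reads in saline 1, saline 3 and methamphetamine 2. It took 0.761% in saline 2, 1.44% in methamphetamine 1 and 1.51% in methamphetamine 3, so that the sets did not overlap. Summed per gene, mt-Cytb, a subunit of complex III, had 73.6, 88.6 and 85.4 CPM in the A libraries and 239, 365 and 251 in the B libraries. mt-Nd4, a subunit of complex I, had 72.7, 75.5 and 91.4 CPM and 263, 428 and 207 CPM. Both were higher in every B library. The RNA-seq values held neither gene by name, so their CLIP difference could not be set beside RNA.

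Reads were also summed per gene and compared by the same rule, over 8381 genes with 60 or more reads. Of these, 462 were higher in A (5.51%) and 704 higher in B (8.4%), and the median difference was -0.10. Of the mitochondrial genome list, 12 of 13 genes were higher in B, with a median log2 difference of -1.84. Of 46 listed cytosolic ribosomal protein genes, 14 had 60 or more reads. Of these 14, 8 were higher in B and 1 in A, with a median of -1.83. Counts were low: Rpl7a, at -2.39, had 3, 6 and 7 reads in A and 6, 34 and 16 in B. Rps23, the 1 gene higher in A, was at 2.83 with 175, 105 and 13 reads in the A libraries. In RNA the 46 genes had a median of -0.42, beside 0.03 over all genes. There 27 were higher in every B pool and 5 in every A pool, beside 3618 and 3448 of all 18208 genes. The list of nuclear and structural noncoding RNAs also holds the protein-coding genes Lars2 and Ptprg and the pseudogene Pisd-ps1. Of its 13 genes with 60 or more reads, 3 were higher in B and 1 in A. The latter was Neat1, the scaffold of paraspeckles. Neat1 had 816, 1001 and 1171 CPM in A and 334, 571 and 491 in B. Of 42 genes of hnRNPs and other splicing regulators, 0 were higher in A and 2 in B, 1 of them the neuronal splicing factor Nova2 at -1.18. Hnrnph1 itself had 190, 167 and 197 CPM in A and 109, 152 and 134 in B.

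Receptor and synaptic genes went both ways. Of 35 glutamate and GABA receptor genes, 1 was higher in A and 2 in B. Grm5, a metabotropic glutamate receptor, had 306, 229 and 231 CPM in A and 1355, 1292 and 376 in B, while its RNA differed by 0.15. Of 41 synaptic adhesion and scaffold genes, 3 were higher in A and 2 in B. Ptprd, a synaptic adhesion phosphatase, had 2882, 1271 and 1820 CPM in A and 920, 753 and 844 in B. Its RNA lay the other way, at 5.39, 5.64 and 5.53 log2 CPM in A and 6.59, 7.00 and 6.83 in B. Epha3, an ephrin receptor, was likewise 2.04 higher in A in CLIP and 1.27 lower in A in RNA, written -1.27 as A minus B. Of the medium spiny neuron markers, 0 of 17 passed the rule in either direction, with a median of -0.40 that was 0.10 without methamphetamine 1.

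The other lists are given by their counts, beside 5.51% of all genes higher in A and 8.4% higher in B, and 9.98% and 6.88% of all peaks. None of 44 voltage-gated ion channel genes was higher in A and 2 were higher in B, although 19 of their 117 peaks were higher in A and 2 in B. Of 37 dopamine and cAMP signalling genes, 0 were higher in A and 1 in B, with 28 and 4 of 190 peaks. Most peaks counted as higher in A passed the filter through set A alone (876 of 1108), and these lists were not examined without them. Presynaptic vesicle release genes had 0 higher in A and 4 in B of 31, and cytoskeleton and motor genes 0 and 5 of 40. Of 10 SR protein genes and of 13 nuclear genes of oxidative phosphorylation, 0 passed in either direction. Among 8 immediate early genes, which respond to neuronal activity, 1 was higher in B. Cell-type marker lists had few genes in CLIP, with 1 gene higher in B each for 9 cortical excitatory, 15 oligodendrocyte, 4 microglia and 2 choroid plexus genes. Astrocyte, endothelial and mural, interneuron and subcortical neuron markers had 0 genes past the rule of 7, 4, 6 and 9. Folr1, Otx2 and Sostdc1 of the choroid plexus, Tmem119 and Trem2 of microglia, Neurod6 of cortical neurons, Gpr6 of medium spiny neurons, Htr3a and Slc18a3 of interneurons, and Calb2 of subcortical neurons had no read in any peak window.

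**Figure D5:**
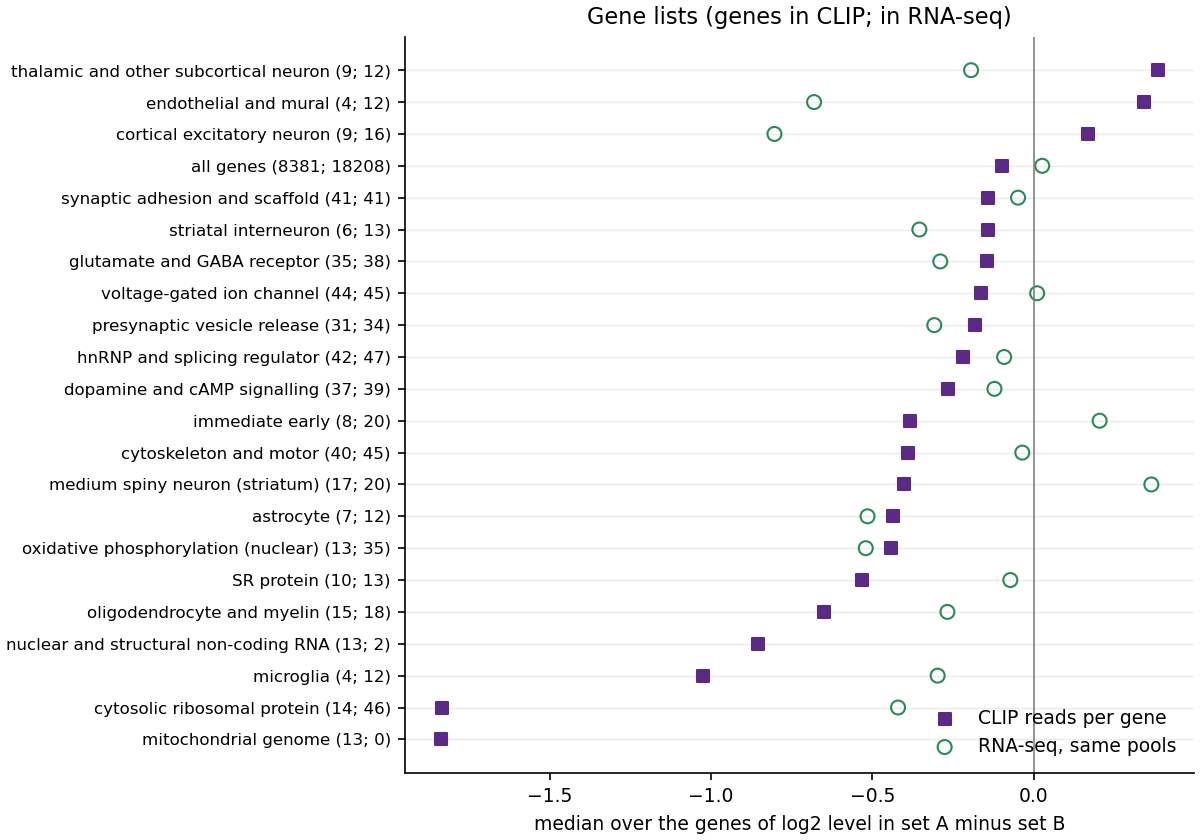
Median log2 difference, A minus B, for the gene lists reported here with at least 4 genes in CLIP, with filled squares for gene-summed CLIP and open circles for RNA-seq of the same pools. Mitochondrial and ribosomal protein genes lie lowest in CLIP, at -1.84 and -1.83, beside -0.10 over all genes.

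RNA-seq of the same pools was set beside CLIP. The sets were chosen from CLIP counts, but they were already known to part the RNA-seq libraries too. RNA values that differ between the sets therefore lend the sets no support. RNA-seq covered 18208 genes with 3935160 to 5091839 reads per pool. The rule was alike but used means of the deposited log2 CPM, without 1 CPM added, so that genes near 0 could pass. By it, 1245 genes (6.84%) were higher in A and 820 (4.5%) higher in B. Genes with peaks higher in A had a median RNA difference of -0.03, and 19 of 734 were higher in A and 35 in B. Genes with peaks higher in B had a median of -0.01, and 21 of 461 were higher in A and 15 in B. All 4609 genes with peaks had a median of -0.04, with 184 higher in A (3.99%) and 214 in B (4.64%), and no test was made of the difference. Among cell-type markers in RNA, medium spiny neuron genes summed to 14953 to 16854 CPM in A and 11278 to 12413 in B. Astrocyte genes summed to 4211 to 4328 in A and 5258 to 5591 in B, and microglia genes to 375 to 403 and 442 to 479. Striatal interneuron genes summed to 1200 to 1354 in A and 1463 to 1970 in B. That list includes Gad1, a gene of GABA synthesis that is not particular to interneurons. Gad1 was at 8.97, 8.81 and 8.79 log2 CPM in A and 9.29, 9.91 and 9.06 in B. Of the 13 interneuron genes, 4 were higher in every B pool and 1 in every A pool. Choroid plexus genes summed to 5318 CPM in methamphetamine 2 and to 144 to 285 in the other pools. The RNA sums of cortical excitatory, oligodendrocyte, endothelial and mural, and subcortical neuron markers overlapped between the sets. Lack of overlap was common in RNA: of all 18208 genes, 3448 were higher in every A pool and 3618 in every B pool. In CLIP the medium spiny sums overlapped, at 9953 to 11376 in A and 8252 to 15494 in B, as did the astrocyte sums, at 1004 to 1085 and 889 to 2025, and the microglia sums did not, at 160 to 184 and 337 to 483. In bulk tissue fewer cells of a type and less RNA per cell cannot be told apart, and the part of cell make-up in the peak differences was not tested.

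The treatment, which the choice of the sets did not use, was tested with edgeR's quasi-likelihood test over all 11107 peaks. At an adjusted p of 0.05 it called 0 peaks (0.0%), and 378 had an unadjusted p under 0.05, of which 210 were higher and 168 lower with methamphetamine. DESeq2 called 0, with 369 under 0.05 unadjusted. Without a filter on low counts edgeR called 414, and the cause was not tested. With the set added as a term, edgeR again called 0, with 286 under 0.05. The set comes from these same counts, so that the smaller spread it leaves is no result. P-values measure the spread between pools. The peaks higher in A had a median log2 treatment difference of -0.51 and those higher in B of 0.76, beside 0.04 over all. Set A holds 2 saline libraries and 1 of methamphetamine and set B the reverse, which fixes these signs. With the set as a term the medians were 0.08, 0.11 and 0.10.

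The peaks with the smallest treatment p belonged to neither side. An intron peak of Dlgap4, a postsynaptic scaffold protein (chr2:156704106-156704205, plus strand), had 678, 246 and 153 reads with saline and 27, 62 and 15 with methamphetamine. Its log2 difference was -3.39, with an edgeR p of 0.00217 that did not pass adjustment, and its A minus B difference was -0.08. Rad54l2, a chromatin remodelling helicase, held an intron peak with 34, 36 and 113 reads with saline and 7, 17 and 6 with methamphetamine. A 5′ UTR peak of Atn1, a transcriptional corepressor, had 4, 1 and 4 reads with saline and 11, 12 and 16 with methamphetamine. In all 3 the treatments did not overlap, and none passed after adjustment. The Atn1 peak passed the filter on reads through the methamphetamine libraries alone, so its lack of overlap is in part set by the filter.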

How the data were processed

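CLIP and RNA-seq libraries from striatal pools of 4 mice were analysed. Per the submitters' processing notes, Trimmomatic, UMI-tools, STAR, bedtools, Subread with featureCounts, limma and edgeR and the build mm10 were used, with no versions given in the sources used here. The CLIP table was deposited by the authors as raw read counts per 100 nt window, with peak lists whose scores are the authors'. The RNA-seq table was deposited by the authors as log2 CPM on limma's voom scale, from which reads per pool were recovered for depth and for 1 alternative. In the CLIP table of 172271 lines, 24597 repeated lines and 236 further repeats of a position were dropped. Peaks needed 10 reads in 3 libraries. Counts were scaled by TMM in edgeR 4.0.16 (R 4.3.3), and log2 values used 1 CPM as the pseudocount. Tables were made with Python 3.11.15, pandas 2.3.3, numpy 2.4.6 and matplotlib 3.10.9, and DESeq2 1.42.0 served as an alternative. Peak regions came from the authors' deposited lists where these held the position and otherwise from GENCODE M21, which supplied 5016 of the 11107 passed peaks. Of 13758 positions in the lists, 94.98% had the same region in GENCODE. CLIP depth was 423057 to 1635338 reads per library. For the treatment, edgeR's quasi-likelihood test was run on all passed peaks with p-values adjusted by Benjamini-Hochberg, after the code was tested on simulated data. A against B was not tested, since the sets came from the same counts.

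Named peaks were the 10 with the widest gap and the 5 most abundant on each side, the 3 with the smallest treatment p, the peaks next to the 2-fold limit, the 8 genes with most differing peaks per side, and up to 2 genes per list and direction. Gene lists (23) and members were chosen with earlier results of these data known. Same-numbered pools are in opposite sets, and their deviations correlated at -0.327, -0.515 and -0.084. The sets come from these same peak values, so the correlations cannot decide whether the numbers pair the pools. The results of 1 gene list and the sequences of some exon peaks are not reported here.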

Additional observations from a re-analysis of the deposited data

How the results depend on the processing

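The treatment test called 0 peaks under size-factor and total scaling, other filters that drop low peaks, DESeq2, the set as a term and each left-out library. Without any filter on low counts edgeR called 414, with 6792 at an unadjusted p under 0.05, and the cause was not tested. With the replicate block it also called 0, with 144 at an unadjusted p under 0.05. The number of peaks higher in A was 98 with 10 reads required in all 6 libraries and the scaling fitted on those peaks, 423 with 10 reads in at least 1 library of each set, 467 at a 4-fold limit and 388 after thinning, and 368 to 1620 when 1 library was left out. Without saline 1, saline 3 or methamphetamine 2 it was 368, 387 and 383, since peaks of set A alone then no longer reach 3 libraries. The number higher in B was 272 with 10 reads in all 6, 365 at 4-fold, 425 after thinning and 635 to 1174 with 1 library left out. The difference in intron share of reads, 2.56 percentage points, was 4.97 over passed peaks alone and 0.63 to 3.85 with 1 library left out. The RNA difference between the genes of the 2 sides, -0.02, kept its sign in every setting. Of 296 values for 30 named peaks, 0 changed sign and 18 moved by more than the SD. Peaks with few reads set the limit on precision: 979 positions had a third-highest count of exactly 10.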

Other observations

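Some positions carried the same counts in all 6 libraries. Of the peaks that passed, 308 shared their 6 counts with another peak, and 106 of these had 200 or more reads in all, of which 2 were higher in A and 8 higher in B. Most of these 106 were overlapping windows on the same strand listed under different genes, such as Cdk12 and Mir5119, and such windows can hold the same reads. Inpp4b, an inositol phosphatase gene, was an exception, with windows that did not overlap (chr8:81880457-81880556 and chr8:82002357-82002456). Both had 12, 6 and 2 reads in the A libraries and 428, 455 and 17 in the B libraries. Such pairs are counted as separate peaks above.

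After thinning to 423057 reads, methamphetamine 1 had a read at 81725 positions, against 54252 to 59331 in the other 5 libraries.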
